A study of Mus musculus with 20 samples.

Results

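The 10 genes described here are outputs and repressors of the mammalian circadian clock, together with the activator gene Rora. They include the transcription factors Dbp, Tef and Hlf, the period genes Per1, Per2 and Per3, and the repressor Ciart. The others are the nuclear receptors Nr1d1, Nr1d2 and Rora. The 10 genes were taken by gene name from an expression table of 16411 genes, of which 16330 could be tested. All 10 were in the table and passed the filter on low values. They were chosen by measured values, because an earlier analysis of the same libraries had shown lower Dbp and Rora with olaparib in 1 tumour line, MDA594. The values of that comparison, with its p-values and counts, are therefore given as a description only. The responses of the other tumour lines come from libraries outside that comparison, and they were tested. They are not independent of it, since the comparisons were set with earlier results of these data known. All lines also share 1 estimate of the spread.

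The libraries were poly(A) RNA from mouse breast tumours carried as allografts, that is, tumour pieces grown in other mice. MDA594 tumours are sensitive to PARP inhibitors, and MDA594OR1 and MDA594OR2, called OR1 and OR2 here, are resistant. Olaparib inhibits the DNA repair enzymes PARP1 and PARP2. There were 3 MDA594 libraries with olaparib and 4 control MDA594 libraries, 4 OR1 libraries with olaparib and 3 control OR1 libraries, and 3 OR2 libraries with olaparib and 2 control OR2 libraries. The labels name no host strain, age, tumour genotype or duration of treatment, and they give no hour at which a tumour was collected. Titles of the olaparib libraries carry a number after the drug name, which the labels do not define. The study holds 1 sensitive and 2 resistant lines, so a comparison with MDA594 is one between single lines. The labels do not define the last code of each title. It was read as the host animal and was shared by 2 libraries in 5 of 14 cases, and both control OR2 libraries carried the same code. Libraries held 36.8 to 118.4 M reads. Values are the authors' log2 counts per M reads (log2 CPM), and changes are log2 differences of fitted group means with a standard error (SE). Each p-value is set by how far these libraries spread, part of which may be technical. Markers of mammary epithelium were present in every library, with a summed level of 1297 to 4514 CPM over the 9 of 10 listed genes in the table, of which Krt14 had 0 reads in at least 1 library.

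In the mammalian clock, the activators CLOCK and BMAL1 bind E-box elements and switch on the Per, Cry, Ciart, Nr1d and Dbp genes. PER and CRY proteins then return to the nucleus and repress CLOCK and BMAL1, which closes a loop of about a day. A further loop runs through ROR elements, where RORA activates and the REV-ERB proteins encoded by Nr1d1 and Nr1d2 repress, among others, the gene for BMAL1. DBP, TEF and HLF carry the rhythm to other genes through D-box elements. The clock runs in most tissues, the mammary gland included, so levels of these genes in a tissue sample depend on the hour of the day.

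Promoter sequence is shown for 5 of the genes, because these are the ones in which a search for the clock elements found a match. Windows of 250 bases before the start site were taken from RefSeq on build GRCm38.p6, which is not the GRCm39 build of the expression data. Of the 10 genes, 9 had a window and 11 windows were searched, and Per2 was not among them. The elements searched, on both strands, were the E-box CACGTG, a variant E-box CACGTT, the D-box TTANGTAA and the ROR element TAGGTCA. Sequences run 5′ to 3′ on the strand of the gene, and capitals mark the matches. The windows are chr3:95882229-95882478 on the minus strand for Ciart, chr11:69098699-69098948 on the plus strand for Per1, chr15:81811164-81811413 on the plus strand for Tef, chr11:98775378-98775627 on the minus strand for Nr1d1 and chr4:151044666-151044915 on the minus strand for Per3.
Ciart: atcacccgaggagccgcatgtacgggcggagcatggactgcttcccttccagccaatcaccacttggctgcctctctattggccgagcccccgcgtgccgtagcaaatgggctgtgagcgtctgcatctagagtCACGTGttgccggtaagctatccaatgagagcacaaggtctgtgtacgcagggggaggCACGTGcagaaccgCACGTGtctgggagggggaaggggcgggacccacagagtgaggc
Per1: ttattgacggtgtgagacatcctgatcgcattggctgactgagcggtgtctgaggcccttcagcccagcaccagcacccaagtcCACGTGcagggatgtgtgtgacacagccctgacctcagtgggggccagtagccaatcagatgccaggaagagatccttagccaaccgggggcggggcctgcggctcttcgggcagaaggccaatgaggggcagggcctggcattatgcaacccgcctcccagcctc
Tef: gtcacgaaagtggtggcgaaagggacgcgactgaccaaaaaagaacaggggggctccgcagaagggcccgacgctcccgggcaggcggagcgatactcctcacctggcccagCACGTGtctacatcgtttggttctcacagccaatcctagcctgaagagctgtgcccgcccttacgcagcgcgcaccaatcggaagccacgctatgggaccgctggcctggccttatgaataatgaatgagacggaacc
Nr1d1: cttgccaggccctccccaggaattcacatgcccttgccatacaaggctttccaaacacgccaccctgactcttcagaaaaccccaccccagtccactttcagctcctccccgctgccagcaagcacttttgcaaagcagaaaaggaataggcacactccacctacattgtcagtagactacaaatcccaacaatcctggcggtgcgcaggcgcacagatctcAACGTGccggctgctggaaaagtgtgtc
Per3: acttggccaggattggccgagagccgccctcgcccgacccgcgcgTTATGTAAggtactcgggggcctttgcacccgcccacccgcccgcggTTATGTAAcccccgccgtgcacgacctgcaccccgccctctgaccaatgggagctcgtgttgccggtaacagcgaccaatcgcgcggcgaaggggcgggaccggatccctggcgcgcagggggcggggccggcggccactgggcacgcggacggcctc

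The E-box was found in 4 of the 11 windows, which belong to 3 genes, against 6.02% of the 32851 windows in the whole table. Ciart held 3 copies, which began at positions -116, -58 and -44 from the start site. Per1 held 1 at -166 in this window and 0 in its other window, and Tef held 1 in each of its windows, at -138 in the one shown and at -127 in the other. Nr1d1 held the variant E-box on the opposite strand at -28, an element found in 3.85% of all windows. Per3 held 2 identical D-boxes, at -205 and -158, against 2.06% of all windows with at least 1. The ROR element was in 0 of the 11 windows and in 2.23% of all windows. A match is a description of the letters in a window and says nothing of binding in these tumours.

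In MDA594 tumours, each of the 10 genes was lower with olaparib, with log2 differences of -1.43 to -0.65 and a median of -1.11, against a median of 0.01 over all tested genes. Dbp and Rora, both at 0.0495, were just below the threshold of 0.05 for the adjusted p in limma, as were 0.0674% of all tested genes in the downward direction. The libraries with olaparib lay wholly below the control libraries in 9 of the 10 genes, all but Per2, and in 12.2% of all genes. That count leaves out 1 library whose title names it an MDA594 control and whose treatment label names it treated. All 10 had an unadjusted p under 0.05, as did 16.8% of all genes in either direction. These counts come from the comparison that chose the genes and are a description only. The count of 2 was 0 with voom and 0 without MDA594_control 2, MDA594_olaparib 2 or MDA594_olaparib 3, and it was 5 without MDA594_control 1, 3 without MDA594_control 3 and 1 without MDA594_control 4. Without both MDA594_control 3 and 4, which share a host code, it was 0 and the median was -0.65, with Tef at -0.67, Hlf at -0.53 and Per2 at -0.63. With title number, a number in each title that the labels do not define, as a term of the model it was 10, where 8.32% of all genes were called lower. Only 1 title number holds both treatments in MDA594. That fit thus compares MDA594_control 3 and 4 with MDA594_olaparib 1 and 2, with 1 host code on each side. In bulk tissue, fewer cells that express a gene and less RNA per cell cannot be told apart.

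The PAR bZIP factors are the output arm. Dbp, whose protein drives D-box genes in liver and other tissues, had 3.86, 3.51 and 3.20 log2 CPM in MDA594 tumours with olaparib, against 4.87, 4.75, 5.04 and 5.08 in MDA594 controls. It had 4.75, 5.31, 5.01 and 4.87 log2 CPM in OR1 tumours with olaparib, against 4.65, 5.04 and 4.68 in OR1 controls. It had 4.34, 4.89 and 3.86 log2 CPM in OR2 tumours with olaparib, against 5.31 and 5.53 in OR2 controls. The olaparib libraries were thus below their controls without overlap in MDA594 and OR2, and the ranges overlapped in OR1. The fitted differences were -1.43 (SE 0.25) in MDA594, 0.18 (SE 0.25) in OR1 and -1.05 (SE 0.30) in OR2.

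Tef, a paralogue of Dbp with the same binding site, averaged 6.20 ± 0.08 log2 CPM in MDA594 with olaparib (SD, n = 3), against 7.21 ± 0.42 in controls (SD, n = 4), a fitted difference of -0.94 (SE 0.22). In OR1 it averaged 7.05 ± 0.13 with olaparib (SD, n = 4) and 6.79 ± 0.03 in controls (SD, n = 3), with a difference of 0.24 (SE 0.22). In OR2 it averaged 6.66 ± 0.42 with olaparib (SD, n = 3) and 7.02 ± 0.17 in controls (SD, n = 2), with a difference of -0.37 (SE 0.26) that was -0.17 without OR2_olaparib 3 and -0.59 without OR2_olaparib 1. The OR1 libraries with olaparib all lay above the OR1 controls, while the groups overlapped in OR2.

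Hlf, the third PAR bZIP gene, had 6.48, 6.54 and 6.45 log2 CPM in MDA594 with olaparib, against 6.90, 7.14, 7.55 and 7.89 in MDA594 controls. Its OR1 and OR2 values, 6.18 to 7.15 log2 CPM over both treatments, overlapped between olaparib and control in each line. The differences were -0.82 (SE 0.27) in MDA594, -0.05 (SE 0.27) in OR1 and 0.23 (SE 0.33) in OR2, where Hlf was the 1 gene of the 10 with a positive value. The sign in OR1 was not stable: it was 0.03 with quantile normalisation and 0.67 within the larger library-name series, which holds 1 OR1 control.

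The period genes encode the repressors that pair with the CRY proteins. Per1, which in many tissues is also induced by acute signals, had 3.88, 3.29 and 3.55 log2 CPM in MDA594 with olaparib, against 3.98, 4.22, 5.86 and 6.48 in MDA594 controls. The control values split into 2 near the treated range and 2 far above it, and the high pair shares a host code and a title number. In OR1 Per1 had 4.71, 5.08, 3.98 and 4.75 log2 CPM with olaparib, against 4.49, 4.60 and 5.17 in controls. In OR2 it had 4.31, 4.27 and 4.15 log2 CPM with olaparib, against 5.58 and 5.46 in controls, with no overlap. The differences were -1.39 (SE 0.49) in MDA594, -0.15 (SE 0.49) in OR1 and -1.28 (SE 0.59) in OR2, with the largest standard errors of the 10 genes in each line. In MDA594 the Per1 value was -0.53 without the high control pair and -2.60 within the larger library-name series, where that pair is the whole control group.

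Per2, a gene whose mutation disturbs behavioural rhythms in mice, had 4.12, 3.48 and 3.83 log2 CPM in MDA594 with olaparib, against 4.76, 4.12, 5.30 and 5.56 in MDA594 controls, where the lowest control met the highest treated library. In OR1 it had 4.61, 4.93, 4.64 and 4.73 log2 CPM with olaparib, against 4.48, 4.54 and 4.07 in controls. In OR2 it had 4.42, 3.81 and 3.57 log2 CPM with olaparib, against 5.19 and 4.86 in controls. Without overlap, the olaparib libraries lay above the controls in OR1 and below them in OR2. The differences were -1.04 (SE 0.31) in MDA594, 0.38 (SE 0.31) in OR1 and -1.09 (SE 0.38) in OR2.

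Per3, whose promoter held the D-boxes shown above, averaged 4.22 ± 0.14 log2 CPM in MDA594 with olaparib (SD, n = 3), against 5.44 ± 0.34 in controls (SD, n = 4). In OR1 it averaged 5.35 ± 0.15 with olaparib (SD, n = 4) and 5.09 ± 0.05 in controls (SD, n = 3). In OR2 the olaparib libraries spread widely, at 5.55, 5.07 and 3.97 log2 CPM, against 5.39 and 5.50 in controls. The differences were -1.18 (SE 0.29) in MDA594, 0.24 (SE 0.29) in OR1 and -0.58 (SE 0.35) in OR2, and the OR2 value was -0.13 without OR2_olaparib 3, the low library. Ciart, a repressor of CLOCK and BMAL1 that acts beside the CRY proteins, had 2.68, 2.66 and 2.85 log2 CPM in MDA594 with olaparib, against 3.40, 3.16, 3.62 and 3.74 in controls. It ran from 2.78 to 3.91 log2 CPM in OR1 with olaparib, against 3.32 to 3.62 in controls. In OR2 it had 3.33, 2.78 and 2.97 with olaparib, against 3.56 and 3.57 in controls, with no overlap. Its differences were -0.70 (SE 0.26) in MDA594, 0.01 (SE 0.26) in OR1 and -0.54 (SE 0.31) in OR2.

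Nr1d1 encodes REV-ERB alpha, a haem-binding repressor. The gene overlaps Thra on the opposite strand, and while the library kit keeps strand, the strand setting of the counting is not given in the sources used here. Nr1d1 had 4.46, 4.17 and 3.98 log2 CPM in MDA594 with olaparib, against 5.27, 5.59, 5.57 and 5.90 in MDA594 controls. In OR1 it had 5.70, 5.85, 5.19 and 5.43 log2 CPM with olaparib, against 5.28, 5.61 and 5.20 in controls. In OR2 it had 4.96, 6.08 and 5.59 log2 CPM with olaparib, against 6.29 and 6.31 in controls. The gap between the lowest control and the highest olaparib library was wide in MDA594 and narrow in OR2, and the OR1 groups overlapped. The differences were -1.38 (SE 0.27) in MDA594, 0.20 (SE 0.27) in OR1 and -0.75 (SE 0.32) in OR2, and the OR2 value was -0.46 without OR2_olaparib 1. Its paralogue Nr1d2, which encodes REV-ERB beta, averaged 6.12 ± 0.21 log2 CPM in MDA594 with olaparib (SD, n = 3) and 6.76 ± 0.12 in controls (SD, n = 4). Its differences were -0.65 (SE 0.19) in MDA594, 0.18 (SE 0.19) in OR1 and -0.12 (SE 0.23) in OR2, and the OR2 value was 0.10 without OR2_olaparib 3.

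Rora encodes the receptor that activates at the elements where REV-ERB proteins repress. It had 5.12, 4.88 and 4.62 log2 CPM in MDA594 with olaparib, against 5.97, 5.96, 6.02 and 6.23 in MDA594 controls. In OR1 it had 6.46, 6.40, 6.02 and 6.21 log2 CPM with olaparib, against 6.140, 6.036 and 5.9997 in controls. In OR2 it had 6.07, 5.85 and 5.38 log2 CPM with olaparib, against 6.39 and 6.23 in controls. The olaparib libraries lay below the controls without overlap in MDA594 and OR2, and the groups overlapped in OR1. The spread within each control group was small, with an SD of 0.13, 0.07 and 0.11 log2 CPM in MDA594, OR1 and OR2 controls. The differences were -1.19 (SE 0.19) in MDA594, 0.23 (SE 0.19) in OR1 and -0.55 (SE 0.23) in OR2, and the OR2 value was -0.35 without OR2_olaparib 3.

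**Figure D1:**
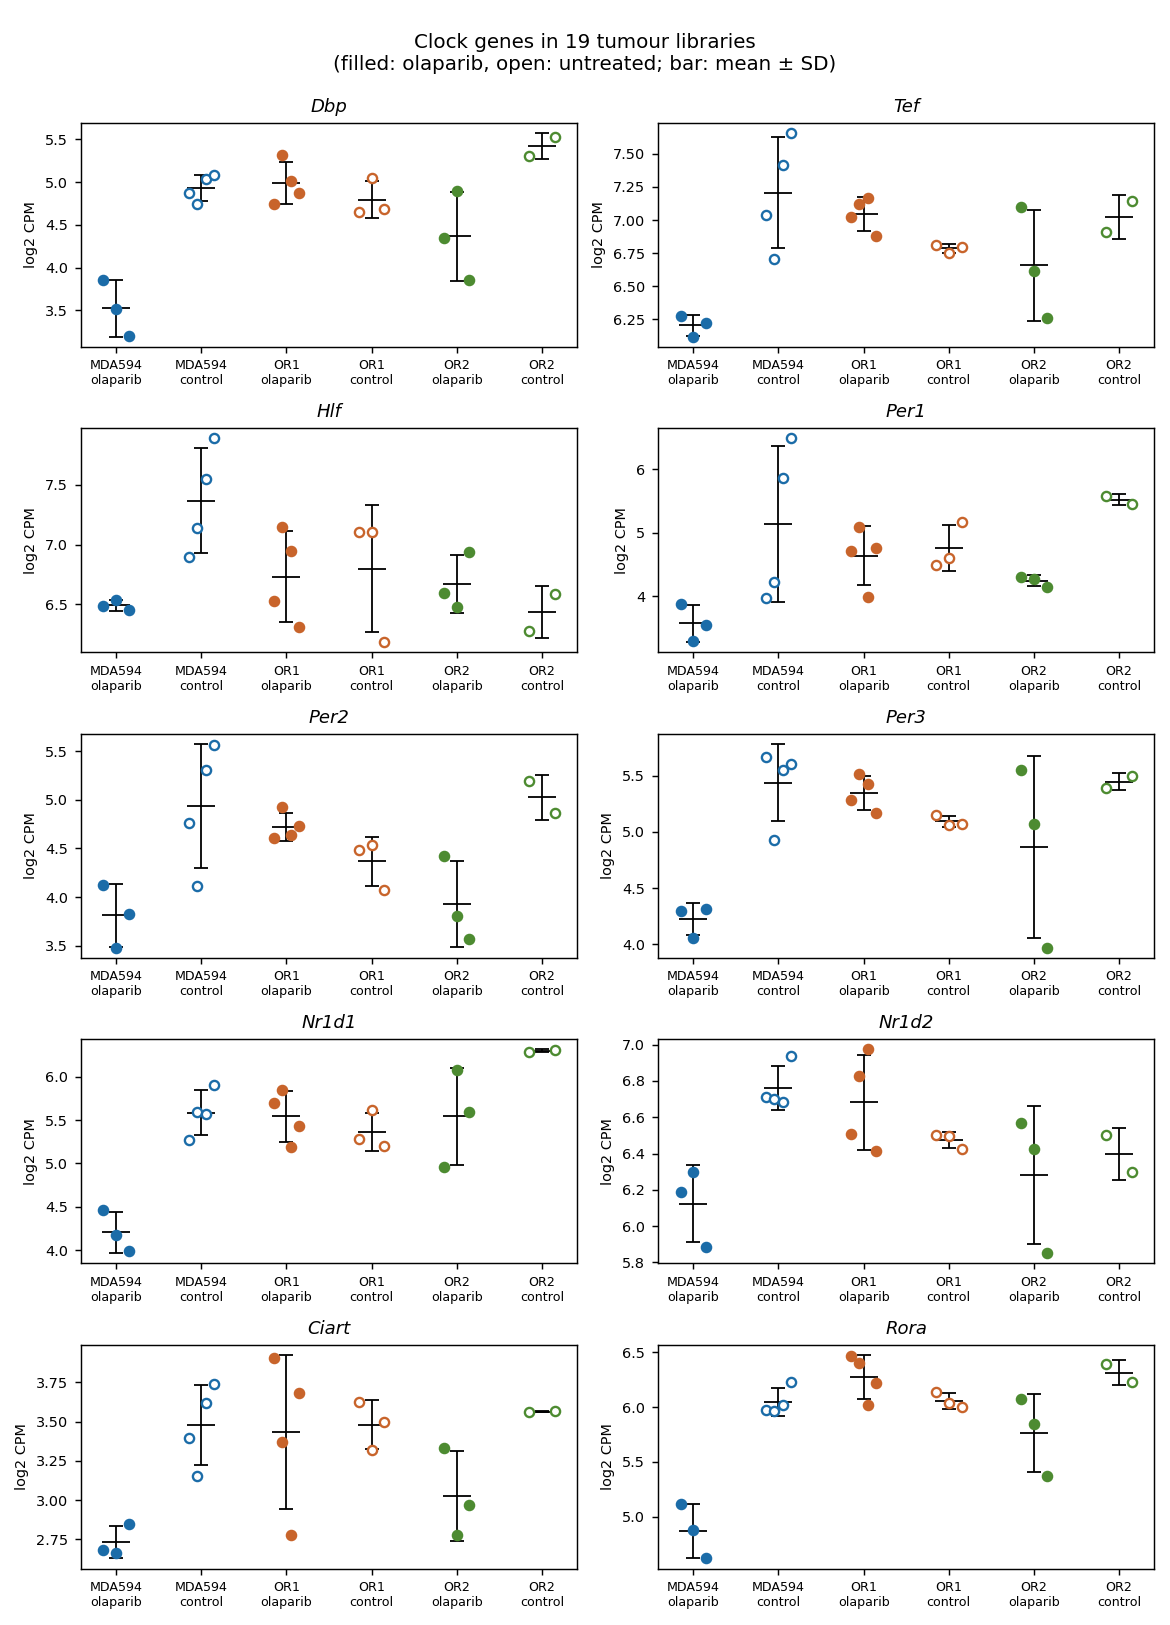
Each panel shows 1 gene, with its level in log2 CPM on the y axis and the 6 groups on the x axis; points are libraries, filled with olaparib and open in controls, and bars are the mean ± SD. Dbp, Nr1d1 and Rora have their lowest groups in MDA594 with olaparib, at 3.52, 4.20 and 4.87 log2 CPM on average, while the OR1 groups lie close together.

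The OR1 response addressed whether the clock genes moved with olaparib in resistant tumours outside the comparison that chose the genes. None of the 10 passed in limma, and 0 had an unadjusted p under 0.05. Over all tested genes, 0% passed and 5.87% had an unadjusted p under 0.05, and voom called 0 of the 10, also with 0 at an unadjusted p under 0.05. The 10 differences ran from -0.15 to 0.38 with a median of 0.19, against -0.01 over all genes, and 8 of 10 were positive. The olaparib libraries lay wholly above the controls for Per2, Per3 and Tef, 3 of 10, against 7.43% of all genes. The 95% interval of the OR1 difference was -0.34 to 0.69 for Dbp, -0.36 to 0.77 for Nr1d1, -0.16 to 0.63 for Rora and -0.37 to 0.85 for Per3. It was wider for Per1, at -1.19 to 0.88, and a missed threshold does not show that the levels were the same.

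In OR2, 9 of the 10 differences were negative, from -1.28 to 0.23 with a median of -0.56, against -0.00 over all genes. None of the 10 passed in limma, where 0% of all genes passed. Of the 10, 5 had an unadjusted p under 0.05, namely Dbp, Per1, Per2, Nr1d1 and Rora, against 6.64% of all genes in either direction, and voom likewise called 0 with 5 at an unadjusted p under 0.05. That count of 5 rests on few libraries: it was 1 without OR2_control 1 and 3 without OR2_control 2 or without OR2_olaparib 3. With title number as a term Per2 passed, 1 of 10, where 0.245% of all genes were called lower. The adjusted p from limma was 0.444 for Dbp, 0.616 for Per2, 0.691 for Rora, 0.701 for Nr1d1 and 0.746 for Per1. The 95% interval of the difference was -1.68 to -0.43 for Dbp and -1.89 to -0.29 for Per2. The olaparib libraries lay wholly below the controls for Ciart, Dbp, Nr1d1, Per1, Per2 and Rora, 6 of 10, against 10.6% of all genes. Both control libraries carry 1 host code, so the OR2 control level rests on what may be a single animal.

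**Figure D2:**
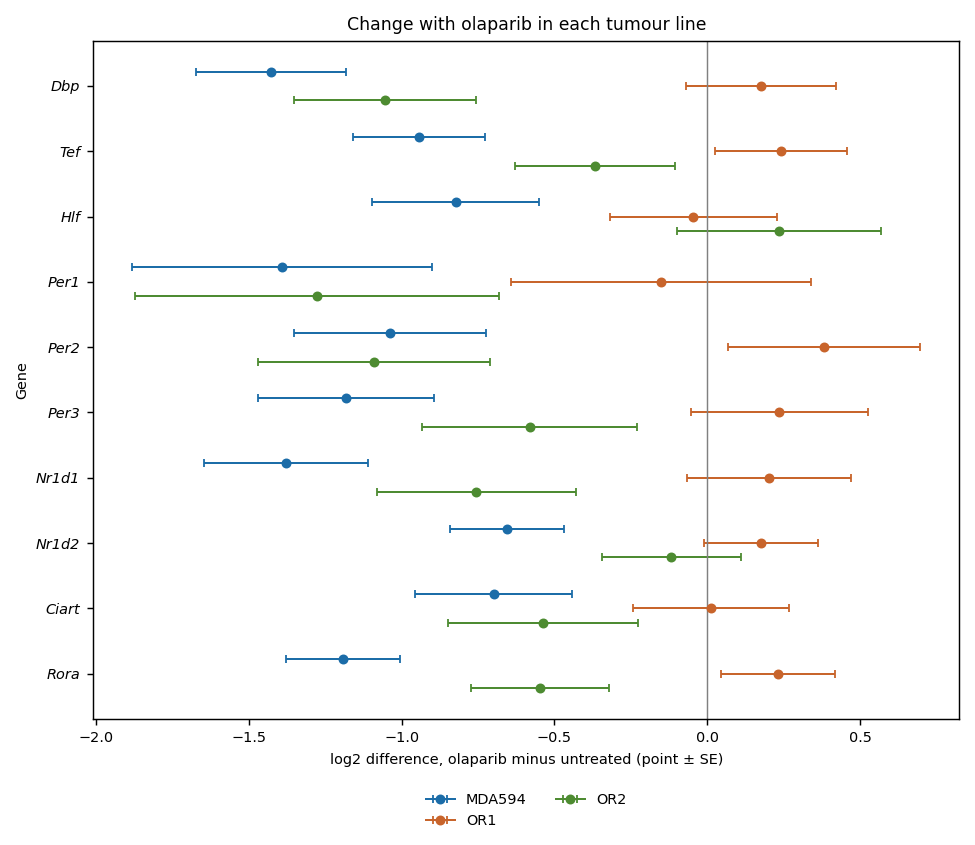
The x axis gives the log2 difference, olaparib minus control, with its SE as a bar, and the y axis gives the gene, with 1 point for each tumour line. MDA594 points lie between -1.43 and -0.65, OR1 points between -0.15 and 0.38, and OR2 points between -1.28 and 0.23.

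Library-name series and title number split the libraries and were examined as possible batches. Within the 13 libraries of the larger name series the median difference of the 10 genes was -1.35 in MDA594, 0.31 in OR1 and -0.70 in OR2. With title number as a covariate it was -1.36, 0.21 and -0.70 in the same lines, and with the name series in the model it was -1.10, 0.17 and -0.61. In OR2 the title number fit and the larger name series compare the same libraries, OR2_control 1 and 2 against OR2_olaparib 2 and 3. Their OR2 differences are therefore the same and are not separate checks. Within that name series, 2 members passed in OR2, Per1 and Per2, with differences of -1.31 and -1.34, where 1.33% of all genes were called lower. All 3 treated MDA594 libraries belong to that series, and the series alone leaves 1 OR1 control. In the smaller series OR1 alone has both treatments, with Dbp at 4.75 log2 CPM in 1 library with olaparib, against 4.65 and 5.04 in 2 controls of 1 host code.

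Averaged over the lines, 0 of the 10 passed in limma, where 0.00612% of all genes passed. In limma 8 of the 10 had an unadjusted p under 0.05, against 13.7% of all genes, and voom also called 0 with 8 at an unadjusted p under 0.05. With title number as a term 9 of the 10 were called lower, as were 6.79% of all genes. The median was -0.51, the largest average difference was in Per1 at -0.94 (SE 0.30), and the smallest was in Nr1d2 at -0.20 (SE 0.12). This average includes the MDA594 libraries that chose the genes.

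The difference between the responses themselves was taken next, and it shares the MDA594 libraries with the choice of genes, so its values and counts are a description. The OR1 response minus the MDA594 response was positive for all 10 genes, from 0.71 to 1.60 with a median of 1.33. It was 1.60 (SE 0.35) for Dbp, 1.58 (SE 0.38) for Nr1d1, 1.42 (SE 0.26) for Rora and 1.42 (SE 0.41) for Per3. None of the 10 passed in limma or in voom, and 0% of all genes passed in limma. An unadjusted p under 0.05 was seen in 7 of the 10 in limma, against 7.33% of all genes, and in 8 in voom. With title number as a term 8 of the 10 were called higher, as were 3.04% of all genes, and within the larger name series 7 were, against 0.863%. The OR2 response minus the MDA594 response ran from -0.05 for Per2 to 1.06 for Hlf, with a median of 0.56. Here 0 of the 10 passed in either test and 0% of all genes passed in limma, with 2 of the 10 in limma and 1 in voom at an unadjusted p under 0.05, against 6.16% of all genes in limma. With title number as a term 1 was called higher, and within the larger name series 2 were, against 0.576% and 2.19% of all genes. The values for Per1 and Per2 were 0.11 (SE 0.77) and -0.05 (SE 0.49), and neither sign was stable. Without MDA594_control 3 and 4 they were -0.75 and -0.47, and within the larger name series 1.29 and 0.29.

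Levels were also compared between lines at the same treatment. With olaparib, all 10 genes were higher in OR1 than in MDA594, with a median of 0.99, and 3 passed in limma, Dbp, Nr1d1 and Rora, against 0.318% of all genes in that direction. Their differences were 1.47 (SE 0.25), 1.37 (SE 0.27) and 1.44 (SE 0.19). The OR1 libraries lay wholly above the MDA594 libraries in 8 of 10 genes, all but Ciart and Hlf, against 16.2% of all genes. The count of 3 was 0 with title number as a term and 8 within the larger name series, where 11.4% of all genes were called higher. These treated groups share no title number, and the title number fit links the lines only through OR1_olaparib 1 and MDA594_control 1. The count was 0 without MDA594_olaparib 3, 1 without MDA594_olaparib 2, and 2 without any 1 of OR1_olaparib 1, OR1_olaparib 2 or OR1_olaparib 4. With olaparib, all 10 were also higher in OR2 than in MDA594, with a median of 0.54, and 2 passed, Nr1d1 at 1.37 (SE 0.28) and Rora at 0.92 (SE 0.19), against 0.87% of all genes in that direction. The OR2 libraries lay wholly above the MDA594 libraries for Nr1d1, Per1 and Rora, 3 of 10, against 12.8% of all genes. The count of 2 was 0 without MDA594_olaparib 2 or MDA594_olaparib 3 and 4 without OR2_olaparib 3. The sign turned in at least 1 alternative for Hlf in OR1, to -0.07 at the lowest. In OR2 it turned for Per2 and Nr1d2, to -0.12 and -0.01 at the lowest. Both comparisons use the treated MDA594 libraries that entered the choice of genes and share them with each other, so these counts are a description.

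Without olaparib, the resistant lines lay on both sides of MDA594. In controls, OR1 minus MDA594 ran from -0.59 (SE 0.27) for Hlf to 0.04 (SE 0.26) for Ciart, with a median of -0.25. None of the 10 passed in limma or voom, and 0.11% of all genes passed in limma. An unadjusted p under 0.05 was seen in 1 of the 10 in limma, against 13.6% of all genes, and in 0 in voom. In controls, OR2 minus MDA594 ran from -0.87 (SE 0.33) for Hlf to 0.74 (SE 0.32) for Nr1d1, with a median of 0.15. None of the 10 passed in either test, and 0.214% of all genes passed in limma. An unadjusted p under 0.05 was seen in 2 of the 10 in each test, against 10.6% of all genes in limma. The OR2 median was 0.84 with title number as a term, where Nr1d1 was at -0.17, and -0.27 within the larger name series. Control OR2 and control MDA594 share no title number. The title number fit thus links them only through OR2_olaparib 1 and MDA594_control 2, a treated and a control library. Within the larger name series 2 of the 10 were called lower in OR2, against 11.1% of all genes. The MDA594 and OR2 controls of that series are each 2 libraries of 1 host code, and the fitted correlation was -0.298. Its OR1 control group is 1 library, with a median of -0.52 against MDA594. Dbp and Nr1d1 of OR2 controls, 2 of 10, lay wholly above MDA594 controls, against 12.6% of all genes, at 5.31 and 5.53 log2 CPM for Dbp against 4.75 to 5.08. Hlf and Nr1d2, also 2 of 10, lay wholly below, against 12% of all genes, at 6.28 and 6.59 log2 CPM for Hlf against 6.90 to 7.89. The control libraries of each line also enter its olaparib response with the opposite sign.

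**Figure D3:**
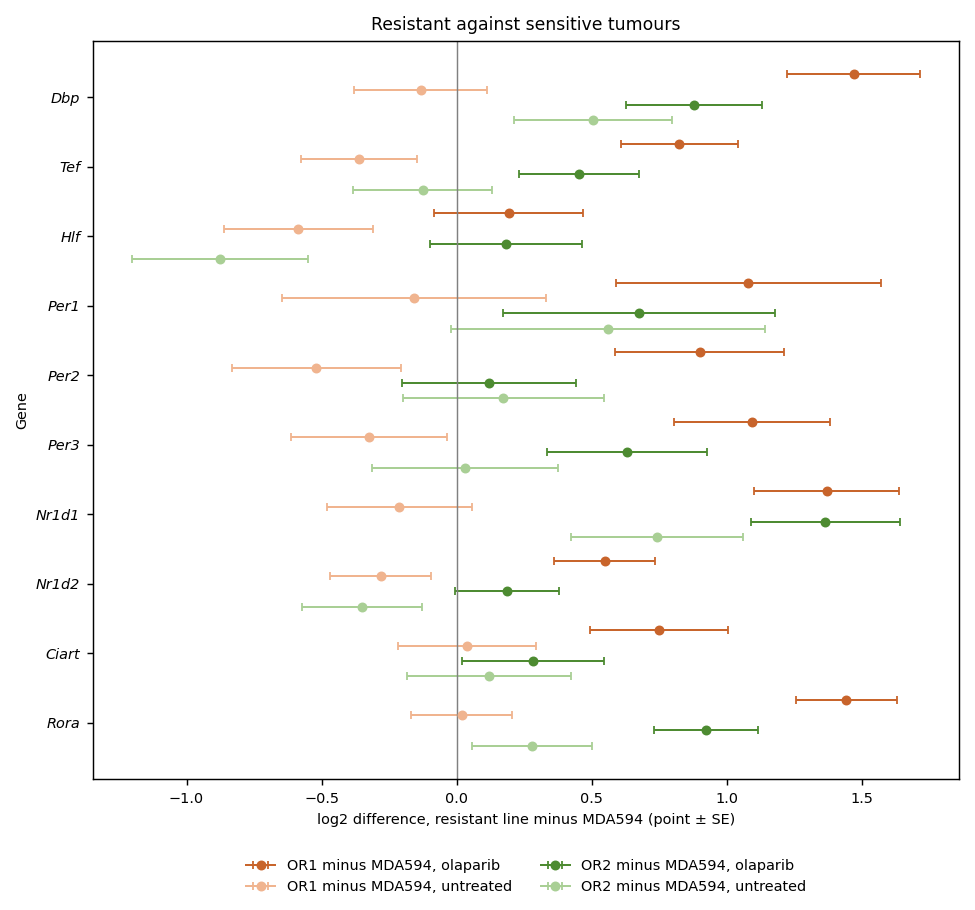
The x axis gives the log2 difference, resistant line minus MDA594, with its SE as a bar, and the y axis gives the gene; dark points are tumours with olaparib and pale points are controls. With olaparib the points lie at 0.19 to 1.47 for OR1 and 0.12 to 1.37 for OR2, and in controls they lie on both sides of 0.

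Correlations within groups were also taken among the 10 genes, with no share over pairs of other genes to set beside them. Over the 19 libraries, after subtraction of group means, 37 of the 45 pairs of genes had a positive Pearson correlation, with a range of -0.30 to 0.83 and a median of 0.41. Dbp correlated at 0.62 with Nr1d2, 0.54 with Nr1d1, 0.53 with Per3 and 0.51 with Rora, and at -0.25 with Ciart. The genes most like Dbp by this measure, among 13144 other genes with a mean of at least 1 log2 CPM, were Il7r at 0.84, C1rl at 0.84, Acp5 at 0.83, Ccpg1 at 0.83 and Fosb at 0.83. Their Spearman correlations ran from 0.76 to 0.87. Of the 13144 genes, 227 had a higher Pearson correlation with Dbp than Nr1d2, the member most like it. The number was 519 for Nr1d1, 1263 for Tef and 9769 for Ciart, the member least like it. The genes least like it were Ccnb2 at -0.87, Chek1 at -0.87, Nucks1 at -0.87, Aurka at -0.86 and Mybl2 at -0.86, with Spearman correlations of -0.88 to -0.83. Ccnb2 encodes a mitotic cyclin, Chek1 a checkpoint kinase, Aurka a mitotic kinase and Mybl2 a transcription factor of cycling cells. These correlations are descriptions over libraries that share host codes, and the values of a library share its depth and cell makeup.

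Other genes of the clock were measured to set the 10 in their pathway. Of 11 further core genes, 10 were tested and Rorb was not, and 0 passed in limma in any of the 3 lines. An unadjusted p under 0.05 in limma was seen in 2 core genes in MDA594, 1 in OR1 and 1 in OR2. The shares of all genes were 16.8%, 5.87% and 6.64% in the same lines. The median difference of the core genes with olaparib was -0.25 in MDA594, 0.07 in OR1 and -0.52 in OR2. Among the activators, Bmal1 had a difference in MDA594 of -0.32 (SE 0.18), its paralogue Bmal2 of -0.00 (SE 0.27) and Clock of -0.06 (SE 0.31). In OR1 the same genes had 0.15, 0.24 and -0.00, and in OR2 -0.02, -0.52 and -0.66. Npas2, which can stand in for CLOCK, had -0.93 (SE 0.88) in MDA594, 0.57 (SE 0.88) in OR1 and -1.63 (SE 1.07) in OR2. The repressors Cry1 and Cry2 had -0.10 and -0.21 in MDA594, -0.13 and 0.26 in OR1, and -0.04 and -0.43 in OR2.

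Nfil3, which represses at the D-box, had -0.29 (SE 0.41) in MDA594, -0.38 (SE 0.41) in OR1 and -0.40 (SE 0.49) in OR2. Bhlhe40 and Bhlhe41 repress at E-boxes. Bhlhe40 had -0.55 (SE 0.18) in MDA594, -0.07 (SE 0.18) in OR1 and -0.58 (SE 0.21) in OR2, whereas Bhlhe41 had 0.28 (SE 0.43), 1.43 (SE 0.43) and -0.53 (SE 0.52).

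Genes whose products modify clock proteins had a median of -0.10 in MDA594, -0.05 in OR1 and 0.06 in OR2 over 8 genes. In limma 0 passed the threshold and 3, 0 and 0 had an unadjusted p under 0.05, against 16.8%, 5.87% and 6.64% of all genes. The kinases of PER proteins, Csnk1d and Csnk1e, had 0.08 and -0.25 in MDA594, -0.28 and -0.15 in OR1, and -0.13 and 0.11 in OR2. Fbxl21, a ubiquitin ligase subunit that acts on CRY proteins, had -0.28 (SE 0.54) in MDA594, 0.52 (SE 0.54) in OR1 and 0.41 (SE 0.66) in OR2. Btrc and Fbxw11, which target PER proteins, had 0.65 (SE 0.27) and 0.06 (SE 0.18) in MDA594, 0.08 and -0.18 in OR1, and 0.16 and 0.02 in OR2. The deubiquitinase gene Usp2 had -0.51 (SE 0.29), -0.22 (SE 0.29) and -0.40 (SE 0.36) in MDA594, OR1 and OR2. Noct, a rhythmic gene that encodes nocturnin, had 0.75 (SE 0.27), 0.16 (SE 0.27) and 0.11 (SE 0.32).

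Output genes that cycle in several tissues did not share 1 direction, with medians of -0.20 in MDA594, 0.06 in OR1 and -0.19 in OR2 over 9 genes. In limma 0 passed the threshold and 3, 0 and 2 had an unadjusted p under 0.05, against 16.8%, 5.87% and 6.64% of all genes. Klf9, a transcription factor also induced by glucocorticoids, had -1.26 (SE 0.38) in MDA594, 0.06 (SE 0.38) in OR1 and -1.42 (SE 0.46) in OR2. Tsc22d3, another glucocorticoid-induced gene, had -1.46 (SE 0.51), -0.01 (SE 0.51) and -0.75 (SE 0.61). The MDA594 controls of both genes spread widely. Klf9 ran from 5.52 to 7.51 log2 CPM in controls, against 5.03 to 5.31 with olaparib. Tsc22d3 ran from 5.38 to 8.36 log2 CPM in controls, against 4.90 to 5.19 with olaparib. Tspan4 had -0.25 (SE 0.25), 0.33 (SE 0.25) and -0.86 (SE 0.30). Nampt, which encodes an enzyme of NAD salvage, had 0.73 (SE 0.21), 0.16 (SE 0.21) and 0.13 (SE 0.26), and the kinase gene Wee1 had 0.05 (SE 0.19), -0.25 (SE 0.19) and 0.27 (SE 0.23). Pdxk, Por and Lonrf3 lay within -0.21 and 0.33 in the 3 lines, with Por at 0.03, 0.12 and 0.33, Pdxk at 0.11, 0.07 and 0.05, and Lonrf3 at -0.20, -0.21 and -0.19.

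**Figure D4:**
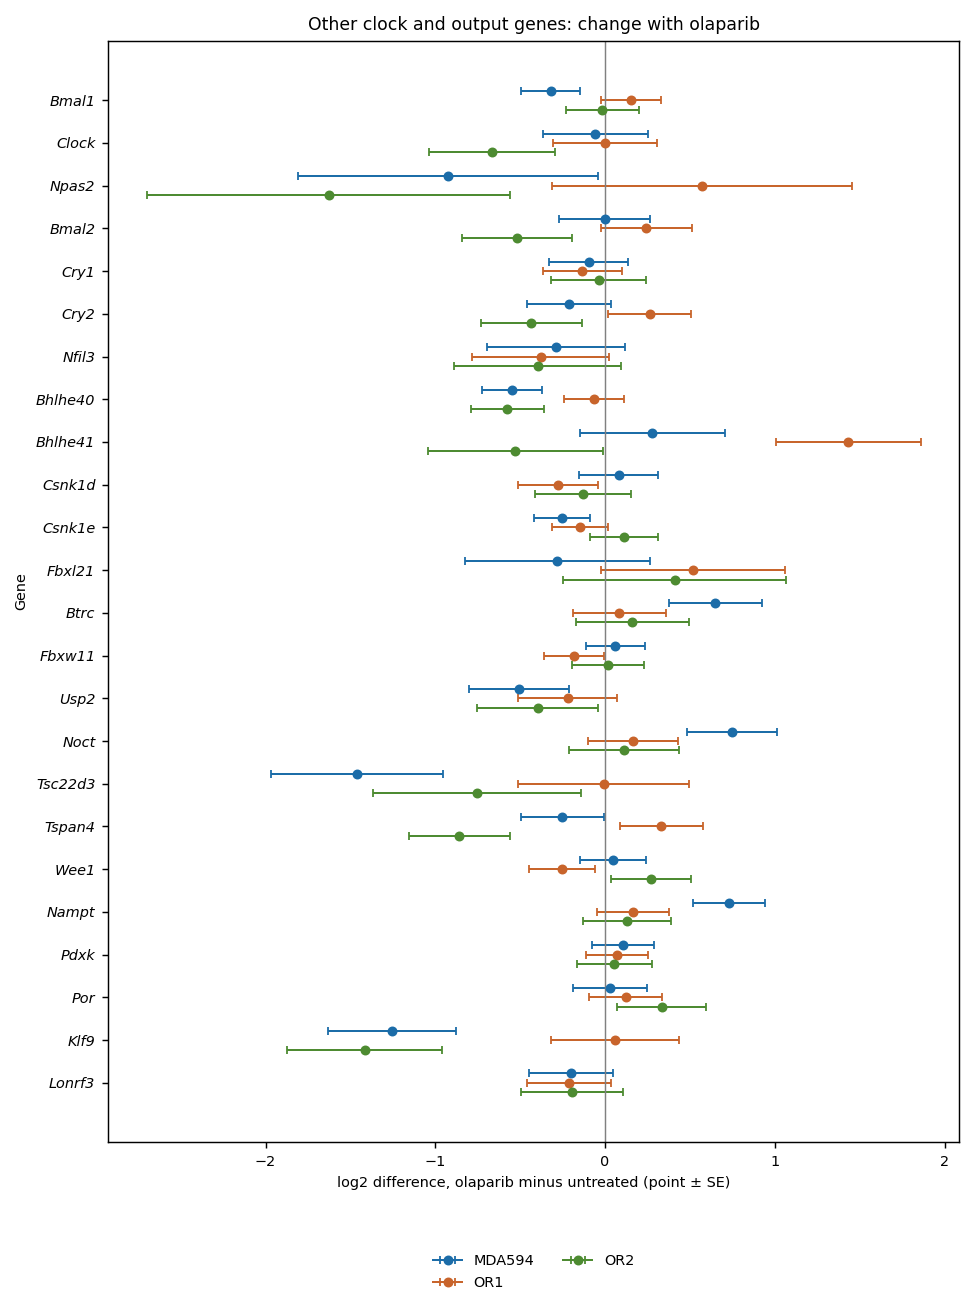
The x axis gives the log2 difference, olaparib minus control, with its SE as a bar, and the y axis gives 24 other clock and output genes, with 1 point for each tumour line. Klf9 and Tsc22d3 lie at -1.26 and -1.46 in MDA594, with a wide spread of controls (SD 0.90 and 1.46 log2 CPM), while Bmal1, Clock and Cry1 lie between -0.32 and -0.06.

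Values of cell cycle genes and markers of other cells are given beside those of the clock genes, and their part in the clock gene values was not tested. None of the listed genes below passed in limma in any line, and voom called 0 of all tested genes in each of the 3 responses. To be set beside the counts of each list, 16.8%, 5.87% and 6.64% of all genes had an unadjusted p under 0.05 in limma in MDA594, OR1 and OR2. Of 12 proliferation genes, 11 had a positive difference in MDA594, 0 in OR1 and 12 in OR2, with medians of 0.41, -0.35 and 0.24 and with 4, 3 and 1 at an unadjusted p under 0.05. Their summed level was 2092 to 2296 CPM in MDA594 with olaparib against 1575 to 1931 in controls, 1238 to 1834 in OR1 with olaparib against 1889 to 2700 in controls, and 1604 to 2519 in OR2 with olaparib against 1553 to 1806 in controls. The median of the 12 genes was thus opposite in sign to the median of the 10 clock genes in each line. The medians of the glucocorticoid and neutrophil lists, given below, had the same sign as that of the clock genes in each line. Glucocorticoid targets, which share Klf9 and Tsc22d3 with the output genes, summed to 562.6 to 590.0 CPM in MDA594 with olaparib against 727.0 to 1269 in controls, and the medians of 10 genes were -0.34, 0.52 and -0.60 in MDA594, OR1 and OR2, with 3, 2 and 2 at an unadjusted p under 0.05. Hypoxia genes had medians of -0.68, -0.10 and -0.56 over 12 genes, with 6, 0 and 3 at an unadjusted p under 0.05, with sums of 2433 to 2774 CPM in MDA594 with olaparib against 2864 to 3986 in controls.

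Macrophage markers were positive in 10 of 10 genes in each line, with medians of 1.43 in MDA594, 1.34 in OR1 and 0.65 in OR2. An unadjusted p under 0.05 in limma was seen in 8, 8 and 0 of them, against 16.8%, 5.87% and 6.64% of all genes. Macrophage markers summed to 627.6 to 996.6 CPM in MDA594 with olaparib against 214.9 to 398.3 in controls. T cell markers had medians of 1.67, 1.35 and 1.87 and summed to 25.41 to 43.5 CPM in MDA594 with olaparib against 5.032 to 33.66 in controls. The medians were 1.004, 0.757 and 0.277 for fibroblast, 0.74, 0.31 and -0.14 for endothelial, -0.27, 1.61 and -1.64 for neutrophil, -0.06, -0.04 and 0.54 for epithelial, and 0.10, -0.06 and -0.20 for immediate early genes in MDA594, OR1 and OR2. Muscle markers summed to 5.729 to 1585 CPM in MDA594 with olaparib, the highest being MDA594_olaparib 3, against 4.709 to 7.643 in controls, with medians of 4.30, -2.23 and -1.01, and 6 of the 12 genes had 0 reads in at least 1 library. Adipocyte markers, of which 4 of 10 were in the table and 2 had 0 reads in at least 1 library, had medians of 1.04, -0.03 and -0.27. Without MDA594_olaparib 3, the muscle-rich library, the MDA594 difference was -1.23 for Dbp and -1.04 for Rora.

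In MDA594, the 2 genes with the smallest p of each list were Cdc6 at 1.16 and Pcna at 0.67 for proliferation, Klf9 at -1.26 and Errfi1 at -1.05 for glucocorticoid targets, and Bnip3 at -1.13 and Pdk1 at -0.71 for hypoxia. They were Cd68 at 1.47 and Adgre1 at 1.67 for macrophages, Cd4 at 1.76 and Lck at 0.75 for T cells, S100a9 at -1.98 and Retnlg at -3.14 for neutrophils, and Crem at 0.49 and Atf3 at 0.84 for immediate early genes. They were Fbln1 at 0.78 and Col1a2 at 1.53 for fibroblasts, Tek at 1.22 and Kdr at 0.84 for endothelium, Krt14 at 3.29 and Krt17 at 0.93 for epithelium, Mb at 2.18 and Tnni2 at 4.19 for muscle, and Car3 at 4.16 and Lipe at -0.22 for adipocytes.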

How the data were processed

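Poly(A) RNA of 20 mouse tumour libraries was measured by sequencing, and 19 carry labels that place them in 1 of 6 groups. Per the submitters' processing notes, the authors used STAR 2.7.10a, RSEM 1.3.1, limma and the mouse build GRCm39; the annotation is not given in the sources used here. What the authors deposited is log2 CPM. The antilogs gave whole reads for 100% of the values checked, within 0.01 reads, after 0.5 reads added before the log2. The precision of a value is set by 36.8 to 118.4 M reads per library and, far more, by the 2 to 4 libraries per group.

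A log2 CPM above 0 in 2 or more libraries was required of a gene, which left 16330 and removed 81. The deposited log2 values were fitted in R 4.3.3 with limma 3.58.1, with 1 mean per group, a correlation of 0.404 between libraries of 1 host code, a mean trend for the moderated variances and 13 residual degrees of freedom. Fitted differences weight libraries by that correlation and so can depart slightly from differences of plain means. Two-sided p-values were corrected after Benjamini and Hochberg across the 16330 genes, and 0.05 was the threshold; intervals are at 95%. The fit was tested on simulated data. The table was read whole, no column went unmatched, and 1 library whose title and treatment label disagree entered no comparison. No gene of the set was dropped.

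The members, the gene lists, the marker lists and the comparisons were chosen with earlier results of these data known. All 10 members are named, as are the tested genes of the 3 other clock lists except 2 that are not reported here but count in the list totals and medians, and of each further list the 2 genes with the smallest p in MDA594. Other settings tried concerned the filter, the constant added before the log, normalisation, the test (voom on recovered reads with the authors' scaled library sizes), the handling of host codes, the mean trend, batch terms and the libraries used. Leaving out both libraries of a host code together was added after seeing the data.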

Additional observations from a re-analysis of the deposited data

Results flagged for a closer look

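Of 20 groups of 4 libraries, 2 held a library far from the other 3 by Dixon's criterion, and chance alone picks out about 1 group in 20. Per3 was at 4.93 log2 CPM in MDA594_control 2, below the other MDA594 controls at 5.55 to 5.66. Nr1d2 was at 6.94 log2 CPM in MDA594_control 4, above the other MDA594 controls at 6.68 to 6.71. Both libraries remained in the fits.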

How the results depend on the processing

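In MDA594 each of the 10 changes stayed negative in 21 alternatives, in OR1 all adjusted p-values stayed above the threshold, and in OR2 Per1 passed in 1 fit and Per2 in 2. The 2 members lower in MDA594 became 0 with voom, with libraries of a host code averaged, without a mean trend, with only the groups compared, and without the host code of MDA594_control 3 and 4 or of MDA594_olaparib 1 and 2. They became 8 with no correlation between libraries of a host code, 10 with title number as a covariate and 10 within the larger name series, where 3.09%, 8.32% and 14.5% of all genes were called lower against 0.0674%, and 0 to 5 without single libraries. Lower in OR2 were 1 with the title number and 2 within the series, against 0. Averaged over lines, 3 were lower without the correlation, 9 with the title number and 8 within the series, with 1.21%, 6.79% and 6.6% of all genes, and 0 to 3 without single libraries, the highest without MDA594_control 1 or OR2_olaparib 1. Within the series, 2 were lower in control OR2 than in control MDA594, and control OR1, with 1 library there, had a median of -0.52 against MDA594. The 3 higher in treated OR1 than in treated MDA594 became 5 without the correlation, where 3.52% of all genes were called higher. They became 8 with only the groups compared, where 2424 of all genes were called higher, against 52 in the main fit. They became 1 with host codes averaged and 0 with the title number, and within the series the median of the 10 genes was 0.987. The count was 1 without the host code of MDA594_olaparib 1 and 2, 0 without that of OR1_olaparib 2 and 3, and 0 to 4 without single libraries. The 2 higher in treated OR2 became 0 with only the groups compared and without the host code of MDA594_olaparib 1 and 2, and 0 to 4 without single libraries. For the response of OR1 minus MDA594, 8 were higher with the title number and 7 within the series, and for OR2 1 and 2. In the title number and series fits the correlation between libraries of a host code was negative, at -0.127 and -0.298. It was also negative, at -0.383, with only the treated OR1 and MDA594 groups in the fit. A negative correlation narrows standard errors, and the cause of the other shifts was not tested. In a fit of the OR2 groups alone the correlation could not be estimated.

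Signs turned in OR1 for Hlf, to 0.026 with quantile normalisation, 0.672 within the series and 0.496 without OR1_control 1 and 2, with -0.427 to 0.109 without single libraries. For Ciart in OR1 they turned to -0.0459 with quantile normalisation, -0.0462 without the correlation, -0.221 with the title number, -0.268 within the series, -0.0817 with only the groups compared and -0.0046 without OR1_control 1 and 2, with -0.155 to 0.170 without single libraries. For Nr1d2 it was -0.0057 in OR1 without OR1_olaparib 2 and 3, and -0.260 to 0.0981 in OR2 without single libraries. For Per1 in OR1 it was -0.333 to 0.105 without single libraries. In controls, the sign of OR2 minus MDA594 turned in at least 1 alternative for 7 of the 10 genes and that of OR1 minus MDA594 for 4, and for the response of OR2 minus MDA594 it turned for 2. With olaparib, the sign of OR2 minus MDA594 turned for 2 genes, Per2 and Nr1d2, and that of OR1 minus MDA594 for 1, Hlf. The labels give no replicate numbers. Treated and control libraries of a line share a title number in part, which the labels do not define. The fit with title number in the model is the nearest to a paired analysis. In MDA594 it compares 1 host code with olaparib against 1 without, and in OR2 it compares the same libraries as the series fit. The count models planned on recovered reads were not run, since the deposited unit is log2; voom was run on those reads. With 2 to 4 libraries per group, depth is not what limits these values.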

Other observations

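The title of 1 library names it an MDA594 control while its treatment label names it treated, so it entered no comparison. Its levels were 3.26 log2 CPM for Dbp, 6.31 for Tef and 6.71 for Hlf. The period genes had 3.70 log2 CPM for Per1, 3.68 for Per2 and 4.43 for Per3, and Ciart had 3.41. The nuclear receptors had 3.90 log2 CPM for Nr1d1, 5.97 for Nr1d2 and 5.26 for Rora. Dbp, Per1, Per2, Nr1d1 and Nr1d2 lay below the highest MDA594 library with olaparib, at 3.86 for Dbp and 4.46 for Nr1d1. As a control, this library would make the MDA594 groups overlap in Dbp, Per1, Nr1d1 and Nr1d2 too. Tef, Hlf, Per3 and Rora lay between the MDA594 groups, and Ciart lay among the MDA594 controls.

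Npas2, the paralogue of Clock, had a wide range between lines. It averaged 4.08 ± 0.64 log2 CPM in OR2 controls (SD, n = 2) and 0.09 ± 1.35 in MDA594 controls (SD, n = 4), a fitted difference of 3.80 (SE 1.05) with an adjusted p of 0.141 in limma. In OR1 controls it averaged 1.83 ± 1.13 log2 CPM (SD, n = 3).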
